A study of Mus musculus with 15 samples.

Results

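The glutathione synthesis, recycling and cystine import group comprised 9 genes, Gclc, Gclm, Gss, Gsr, Slc7a11, Slc3a2, Glrx, Gpx1 and Gpx4, out of 18193 genes named on the array. Members were chosen by symbol: every probe set that the platform annotation assigned to exactly 1 of these symbols was taken, which gave 16 probe sets. All 16 passed the filter on low signal, 2 members (Slc3a2 and Gpx1) had 1 probe set and the other 7 had 2. RNA came from a dendritic cell line of epidermal origin (newborn A/J mouse), and 15 arrays were hybridised, 3 in each of 5 groups. The treated groups received DNFB (dinitrofluorobenzene, a skin sensitiser that binds thiol and amino groups), hydrogen peroxide (H2O2), DPI (diphenyl iodonium, which blocks NADPH oxidase and other flavoenzymes), or DPI together with DNFB. The fifth group was labelled non-treated, while the series' design text speaks of vehicle, so whether these cells received a solvent is not settled. Doses, exposure times and the order in which DPI and DNFB were given are not stated in the labels, all groups are of 1 line, and separate cultures are not mentioned for the 3 arrays within a group. The p-values are therefore relative to a spread between arrays that may be no more than technical.

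Glutathione is the tripeptide of glutamate, cysteine and glycine that serves cells as their main low-molecular-weight thiol. Cystine enters through the xCT antiporter, made of the light chain Slc7a11 and the heavy chain Slc3a2, and is reduced to cysteine inside the cell. Glutamate-cysteine ligase, with the catalytic subunit Gclc and the modifier subunit Gclm, carries out the rate-limiting step of synthesis, and glutathione synthetase (Gss) adds glycine. Glutathione peroxidases such as Gpx1 and Gpx4 and the glutaredoxin Glrx use reduced glutathione, and glutathione reductase (Gsr) regenerates it with NADPH. In dendritic cells, contact allergens that bind thiols are known to deplete glutathione, and several genes of the pathway are known targets of the transcription factor NRF2.

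Promoter windows of 250 bases before an annotated transcript start were taken from RefSeq (build GRCm38.p6) for the 7 members matched there, Gclm, Gss, Slc7a11, Slc3a2, Glrx, Gpx1 and Gpx4, with 11 windows in all. Both strands were searched for 3 motifs: the antioxidant response element TGACNNNGC, bound by NRF2 with small MAF proteins; the amino acid response element TGATGNAA, bound by ATF4; and the AP-1 site TGANTCA, bound by FOS, JUN and ATF dimers. Matches lay in the windows of 3 members, and these windows are printed because they hold the matches, which capitals mark.
Gclm: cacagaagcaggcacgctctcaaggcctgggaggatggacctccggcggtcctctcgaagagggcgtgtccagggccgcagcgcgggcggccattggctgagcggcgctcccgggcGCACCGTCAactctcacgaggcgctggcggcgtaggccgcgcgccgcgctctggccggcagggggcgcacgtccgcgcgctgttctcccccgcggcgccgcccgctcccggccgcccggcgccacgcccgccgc
Slc7a11: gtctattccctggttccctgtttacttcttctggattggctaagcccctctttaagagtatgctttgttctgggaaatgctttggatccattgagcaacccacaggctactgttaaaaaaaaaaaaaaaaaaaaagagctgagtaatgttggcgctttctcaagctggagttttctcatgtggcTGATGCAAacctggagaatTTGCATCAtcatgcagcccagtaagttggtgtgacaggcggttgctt
Glrx: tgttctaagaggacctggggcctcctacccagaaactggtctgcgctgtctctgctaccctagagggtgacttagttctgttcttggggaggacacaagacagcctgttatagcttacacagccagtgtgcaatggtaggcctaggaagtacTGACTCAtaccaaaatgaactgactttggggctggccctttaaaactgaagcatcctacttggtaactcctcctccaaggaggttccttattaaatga
The Gclm window (chr3:122245307-122245556, plus strand) held 1 antioxidant response element, read on the opposite strand and beginning 134 bases before the start; 10.2% of the 32851 windows in the RefSeq table held that motif. The Slc7a11 window (chr3:50443614-50443863, minus strand) held the amino acid response element at 66 bases before the start on the same strand and at 47 bases on the opposite strand, a motif found in 3.45% of windows. The Glrx window (chr13:75839635-75839884, plus strand) held 1 AP-1 site at 98 bases before the start, found in 6.75% of windows. That motif reads alike on both strands and was counted as 1 site. It overlapped neither of the other motifs. The Gclm and Slc7a11 windows precede a transcript start that lies inside the gene's full annotated span. Such matches are letters in a window and do not show binding.

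Signals were the deposited MAS5 intensities rescaled to a common trimmed mean and tested as log2 of the signal plus a pseudocount of 15, which shrinks the folds of dim genes. In all, 12701 genes were tested with limma on the 15 arrays, and adjusted p denotes limma's p after Benjamini-Hochberg adjustment over those genes, with a threshold of 0.05. Within groups, Pearson correlations between arrays over the tested genes (not independent replicates) were 0.946 to 0.973, and no array held the same values as another. Of 14 dendritic cell markers 13 passed the filter on low signal, Ccr7 being the exception. The summed signal of all 14 was 93105 to 105060 with DNFB and 111530 to 124880 with H2O2. It was 92847 to 118320 with DPI and 113370 to 119880 with DPI + DNFB, against 91232 to 105950 without treatment. The H2O2 and DPI + DNFB sums lay above the non-treated ones without overlap, and those with DNFB and DPI overlapped them. Cd74 (24862 to 54250 over the 15 arrays) and H2-Aa (27063 to 46056) were by far the brightest of this list. A higher sum therefore does not say that the whole list was higher. Of other cell types, 3 of 7 annotated keratinocyte markers, 1 of 6 fibroblast markers, 2 of 6 T cell markers, 3 of 6 mast cell and melanocyte markers and 5 of 5 macrophage markers passed; the macrophage sum was 22088 to 23922 with DNFB, 12859 to 17448 with H2O2, 12106 to 12684 with DPI and 14096 to 15913 with DPI + DNFB, against 17616 to 21609 without treatment. The T cell sum was 2410.5 to 2812 with DNFB, 1849 to 1969 with H2O2, 1487 to 1959 with DPI and 2094 to 2154 with DPI + DNFB, against 1652 to 2016 without treatment. The mast cell and melanocyte sum was 1175 to 1832 with DNFB, 961 to 1229.8 with H2O2, 1047 to 1450.3 with DPI and 874 to 1166 with DPI + DNFB, all below the 1853 to 2233 without treatment. The T cell markers that passed were Cd28 (1107 to 2432 over the 15 arrays) and Cd8a (99.1 to 438), while Cd3d, Cd3e, Cd3g and Cd4 did not. Cd28 made up most of the T cell sum. Kit (368 to 1906) was the brightest of the mast cell and melanocyte list, where Tyr and Pmel passed and Cpa3, Fcer1a and Dct did not. The keratinocyte sum was 519 to 668 with DNFB, just above the 276 to 515 without treatment. It was 468 to 557 with H2O2, 382 to 572 with DPI and 406 to 856 with DPI + DNFB, which overlapped non-treated. The fibroblast sum was 264 to 517 with DNFB, 349 to 463 with H2O2, 357 to 401 with DPI and 337 to 649 with DPI + DNFB. Each of these overlapped the 379 to 419 without treatment. The beta-actin 3' to 5' signal ratio, a measure of RNA integrity that is higher when transcripts are shortened, averaged 1.95 ± 0.405 with DPI + DNFB and 1.25 ± 0.003 without treatment (SD, n = 3 each). The arrays had been deposited at scaling targets of 250 (6 arrays) and 500 (9 arrays). Centring each array on its median instead lowered the median of all genes by 0.25 in DPI + DNFB against non-treated cells, and the values as deposited lowered it by 0.31 in DNFB against non-treated cells. Whether marker levels of any of these kinds or the 3' to 5' ratio contribute to the results below was not tested beyond a fit with the beta-actin ratio as a covariate. The ratio was highest in the DPI + DNFB group, so this fit cannot tell it apart from that treatment. It also widens the standard errors of comparisons with that group. Beside each member call that ended under that fit, its values are given; under it, 3.25% of all genes were higher and 4.07% lower with DPI + DNFB against non-treated cells.

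Most members rose with DNFB. Against non-treated cells, 7 of the 9 members rose with DNFB (Slc7a11, Slc3a2, Gclc, Gclm, Gss, Gsr and Glrx), Gpx1 fell and Gpx4 did not pass; over all genes 10.5% rose and 13.9% fell. The median log2 fold change of the members was 0.83, beside -0.06 for all genes tested. With H2O2, 4 members rose (Slc7a11, Slc3a2, Gclc and Glrx), 5 did not pass and none fell by limma, nor did any at an unadjusted p of 0.05 (0 members), where 10.9% of genes rose and 17.4% fell. With DPI alone, 5 members rose (Slc3a2, Gclc, Glrx, Gpx1 and Gpx4) and 2 fell (Gclm and Slc7a11), where 13.3% of genes rose and 18.4% fell. With DPI + DNFB, 4 rose (Slc3a2, Glrx, Gpx1 and Gpx4) and 3 fell (Gclc, Gclm and Gsr), where 15% of genes rose and 18.7% fell (7.24% and 29.4% with array median centring). The member medians were 0.16 with H2O2, 0.35 with DPI and 0.26 with DPI + DNFB, beside -0.06, -0.01 and 0.02 for all genes. These 4 comparisons share the non-treated arrays. The members were chosen with earlier results of these data known, so the shares of all genes give a scale for the member counts and not a test. In bulk RNA of this kind, fewer cells of a type and less RNA per cell cannot be told apart.

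On the values as deposited, 0.535% of genes rose and 1.12% fell with DNFB, 0.787% and 0.575% with H2O2, and 0.709% and 0.685% with DPI + DNFB. On the arrays deposited at the lower target alone, where every group but DNFB had 1 array that is assumed to vary like the DNFB pair, 6 members rose and 0 fell by limma with DNFB (7.83% and 8.90% of all genes), with 7 and 1 at an unadjusted p of 0.05. The same arrays gave 2 and 0 with H2O2 (5.66% and 8.39% of all genes), with 3 and 0 unadjusted, 3 and 2 with DPI (7.09% and 11.2% of all genes), and 4 and 2 with DPI + DNFB (9.09% and 11.6% of all genes). On those at the higher target, where DNFB had 1 array, 4 members rose and 0 fell by limma with DNFB (4.98% and 5.65% of all genes), with 6 and 1 at an unadjusted p of 0.05. The higher target gave 2 and 0 with H2O2 (7.61% and 11.8% of all genes), with 4 and 0 unadjusted, 2 and 1 with DPI (8.20% and 11.9% of all genes), and 4 and 3 with DPI + DNFB (10.1% and 12.6% of all genes). Over all 8 comparisons, 53 values of members passed the test, and none of their 106 counterparts on the arrays of 1 target had the opposite sign. The arrays of each target are also part of the main fit, so this sameness of sign was partly set in advance and is not a separate check. With DPI alone, leaving out DPI replicate 1 brought the number of members that passed to 3.

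**Figure D1:**
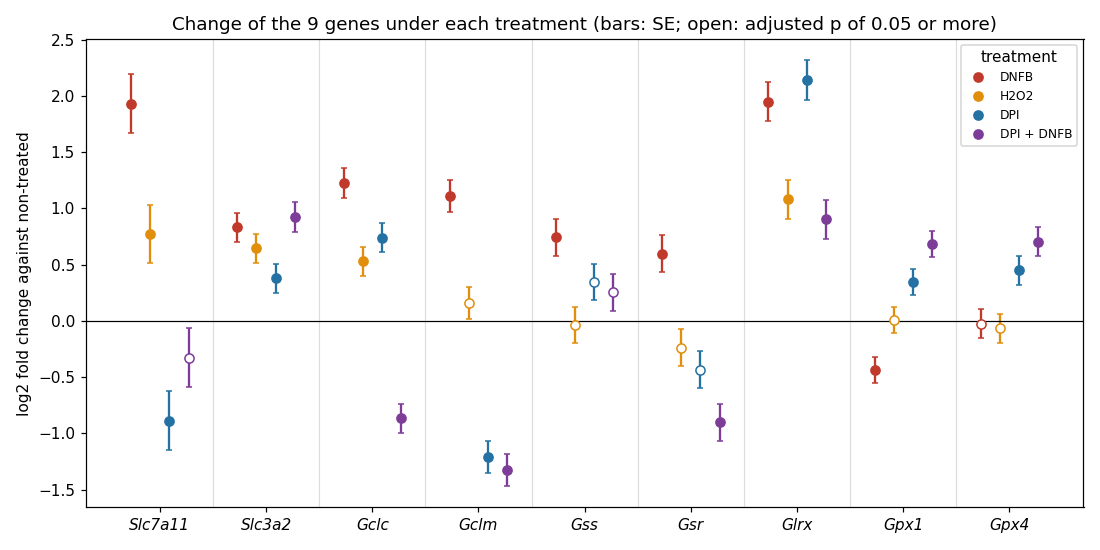
Log2 fold change of each of the 9 genes against the non-treated arrays (vertical axis) for DNFB, H2O2, DPI and DPI + DNFB; points are limma estimates from 3 arrays a group, bars are standard errors and open points did not pass an adjusted p of 0.05. Slc7a11 and Gclm lie above 0 with DNFB and below it with DPI, Glrx lies above 0 with all 4 treatments, and Gclc lies above 0 with DNFB, H2O2 and DPI and below 0 with DPI + DNFB.

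Slc7a11 (chr3:50364936-50499087), the cystine-specific light chain of xCT whose promoter is printed above, rose with DNFB and with H2O2 and fell with DPI. The signal was 884, 939.6 and 631 on the DNFB arrays, 386, 299.6 and 379 on the H2O2 arrays and 83.9, 137 and 89.9 on the DPI arrays. It was 196, 179.8 and 108 on the DPI + DNFB arrays, against 252, 164 and 194 on the non-treated arrays. Every DNFB array was above every array of the other groups, the H2O2 arrays lay above the non-treated ones without overlap, and the DPI arrays lay below them; DPI + DNFB overlapped both DPI and non-treated. Slc7a11 rose 3.82-fold with DNFB (log2 1.93 ± 0.261 SE, adjusted p = 1.35e-05) and 1.71-fold with H2O2 (log2 0.77 ± 0.261 SE, adjusted p = 0.0314). It fell 1.85-fold with DPI (log2 -0.89 ± 0.261 SE, adjusted p = 0.013), and with DPI + DNFB its log2 difference of -0.33 ± 0.261 (adjusted p = 0.357) did not pass. The log2 rise with DNFB was 1.52 on the arrays deposited at the lower target and 2.30 on those at the higher. The H2O2 call ended without non-treated replicate 2 or 3 or without H2O2 replicate 1 or 3 (adjusted p between 0.0804 and 0.128), and the DPI call without non-treated replicate 1 or DPI replicate 1 (adjusted p = 0.0679 and 0.0556).

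The other Slc7a11 probe set rose with DNFB as well, but its calls differed from those of the first with H2O2 and in the DPI groups. The signal was 498, 609 and 390.0 on the DNFB arrays, 174, 110.2 and 196 on the H2O2 arrays and 45.8, 101 and 118 on the DPI arrays. It was 12.2, 5.33 and 31.2 on the DPI + DNFB arrays, against 72.9, 73.6 and 78.3 on the non-treated arrays. With DNFB its log2 change was 2.49 ± 0.391 (adjusted p = 0.000121) and with DPI it was 0.12 ± 0.391 (adjusted p = 0.865), a difference that did not pass. With H2O2 its log2 change of 0.93 ± 0.391 (adjusted p = 0.105) did not pass either, although its H2O2 arrays lay above the non-treated ones. With DPI + DNFB it fell by the test, at -1.61 ± 0.391 (adjusted p = 0.00407), where the first probe set did not pass. Of these 3 DPI + DNFB signals, 2 were under the pseudocount of 15, so the size of that fall depends on it. The mean of both probe sets gave -0.38 with DPI (adjusted p = 0.301) and -0.97 with DPI + DNFB (adjusted p = 0.0081).

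Slc3a2 (chr19:8706882-8723369), the 4F2 heavy chain that brings xCT and other amino acid transporters to the cell surface, rose under all 4 treatments. The signal was 4204, 4115 and 4173 on the DNFB arrays, 3439, 4235 and 3342 on the H2O2 arrays and 3022, 3373 and 2744 on the DPI arrays. It was 4199, 4640.5 and 4474 on the DPI + DNFB arrays, against 2221, 2900 and 1968 on the non-treated arrays. The order of means was DPI + DNFB, DNFB, H2O2, DPI and non-treated, and each neighbouring pair in that order overlapped. The rise was 1.78-fold with DNFB (log2 0.83 ± 0.13 SE, adjusted p = 7.05e-05), 1.56-fold with H2O2 (log2 0.64 ± 0.13 SE, adjusted p = 0.000835) and 1.9-fold with DPI + DNFB (log2 0.92 ± 0.13 SE, adjusted p = 2.12e-05). With DPI alone it was 1.3-fold (log2 0.38 ± 0.13 SE, adjusted p = 0.0312), a call that ended without non-treated replicate 1 or 3 or DPI replicate 1 or 2 (adjusted p between 0.0684 and 0.184) and with array median centring (adjusted p = 0.104). Slc3a2 thus passed as higher in both DPI groups, where the tested Slc7a11 probe set fell or did not pass.

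Gclc (chr9:77754535-77794489), the catalytic subunit of glutamate-cysteine ligase, rose with each agent given alone and fell with DPI + DNFB. The signal was 5199, 4995 and 4837 on the DNFB arrays, 3047, 2770 and 3473 on the H2O2 arrays and 3297, 3589 and 3862 on the DPI arrays. It was 1217, 1382 and 937 on the DPI + DNFB arrays, against 2185, 2272 and 1954 on the non-treated arrays. The DNFB arrays were the highest and the DPI + DNFB arrays the lowest, each without overlap with any other group; DPI and H2O2 overlapped, and both lay above non-treated. Gclc rose 2.34-fold with DNFB (log2 1.23 ± 0.129 SE, adjusted p = 7.54e-07), 1.44-fold with H2O2 (log2 0.53 ± 0.129 SE, adjusted p = 0.00404) and 1.67-fold with DPI (log2 0.74 ± 0.129 SE, adjusted p = 0.000189). It fell 1.82-fold with DPI + DNFB (log2 -0.87 ± 0.129 SE, adjusted p = 3.92e-05), and with the beta-actin 3' to 5' ratio as a covariate the fall was -0.58 and no longer passed (adjusted p = 0.107). The second probe set gave the same calls, with log2 changes of 1.02 ± 0.14 (adjusted p = 2.65e-05) for DNFB and -0.59 ± 0.14 (adjusted p = 0.00332) for DPI + DNFB. The DNFB rise was 1.19 on the arrays at the lower target and 1.24 at the higher.

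Gclm (chr3:122245487-122267215), the modifier subunit that lowers the enzyme's feedback inhibition by glutathione, moved with DNFB as Gclc did but went the other way with DPI. The signal was 9906, 7828 and 9008 on the DNFB arrays, 5096, 3895 and 4858 on the H2O2 arrays and 1942, 1427 and 1983 on the DPI arrays. It was 1643, 1452 and 1816 on the DPI + DNFB arrays, against 4556, 3585 and 4227 on the non-treated arrays. The DNFB arrays were the highest, H2O2 overlapped non-treated, and all 6 arrays with DPI lay below every array without it. Gclm rose 2.16-fold with DNFB (log2 1.11 ± 0.144 SE, adjusted p = 8.6e-06) and fell 2.31-fold with DPI (log2 -1.21 ± 0.144 SE, adjusted p = 2.74e-06) and 2.5-fold with DPI + DNFB (log2 -1.32 ± 0.144 SE, adjusted p = 1.32e-06). With H2O2 the log2 difference was 0.16 ± 0.144 (adjusted p = 0.458). The second probe set also fell with DPI (-1.33 ± 0.251, adjusted p = 0.000573) and with DPI + DNFB (-1.93 ± 0.251, adjusted p = 1.4e-05); its DNFB difference of 0.64 ± 0.251 (adjusted p = 0.0886) did not pass, although its 3 DNFB arrays lay above the non-treated ones. The DNFB rise of the first probe set was 1.05 on the arrays at the lower target and 1.01 at the higher, and the fall with DPI + DNFB was -1.55 with the beta-actin covariate (adjusted p = 0.000638).

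Within an array, the log2 ratio of Gclm to Gclc, set to a mean of 0 on the non-treated arrays, was -0.01, -0.29 and -0.04 with DNFB and -0.20, -0.45 and -0.46 with H2O2. It was -1.70, -2.26 and -1.89 with DPI and -0.51, -0.87 and 0.01 with DPI + DNFB, against 0.12, -0.28 and 0.17 without treatment. The DPI arrays alone lay apart from all others, with a mean difference from non-treated of -1.95 (two-sided exact permutation p = 0.1, adjusted p = 0.2 over 8 tests; 3 against 3 arrays cannot give a p below 0.1). The log2 ratio of Slc7a11 to Slc3a2 was 1.22, 1.33 and 0.75 with DNFB and 0.34, -0.31 and 0.36 with H2O2. It was -1.50, -1.03 and -1.27 with DPI and -0.88, -1.13 and -1.74 with DPI + DNFB, against 0.38, -0.58 and 0.20 without treatment. Differences from non-treated were 1.10 with DNFB, -1.27 with DPI and -1.25 with DPI + DNFB (exact permutation p = 0.1 each, adjusted p = 0.2), and 0.13 with H2O2 (exact permutation p = 0.7). Both ratios were taken on the tested probe sets and chosen after the members' values had been seen. The low Slc7a11 to Slc3a2 ratio with DPI depends on that choice of probe set. The other Slc7a11 probe set changed by 0.12 ± 0.391 with DPI (limma adjusted p = 0.865), while it rose with DNFB (2.49) and fell with DPI + DNFB (-1.61). No ratio passed after adjustment, and a ratio within an array does not say which of its genes moved.

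**Figure D2:**
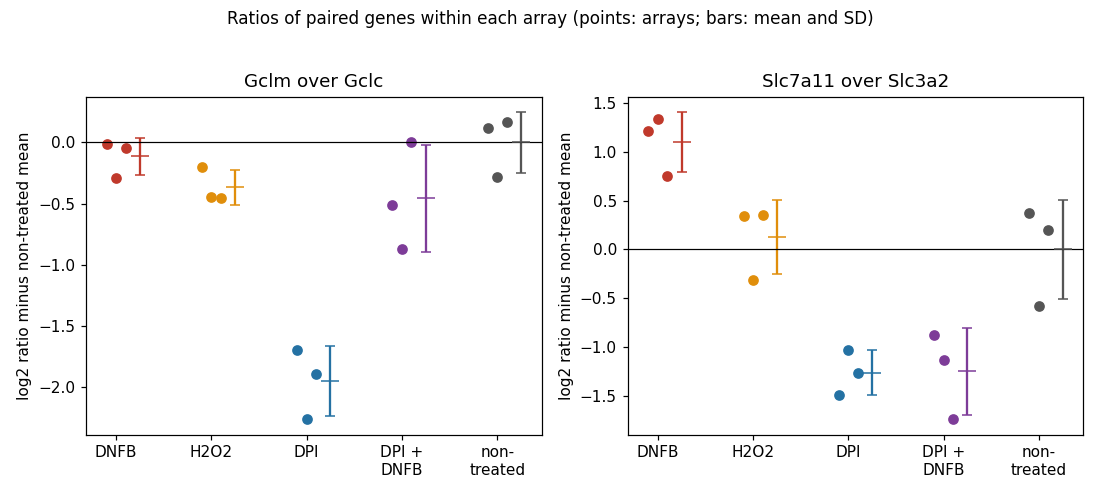
Log2 ratio of Gclm to Gclc (left) and of Slc7a11 to Slc3a2 (right) within each array, minus the non-treated mean, for the 5 groups; points are arrays and the bars beside them are mean and SD of 3 arrays. The Gclm to Gclc ratio is lowest with DPI (mean -1.95), and the Slc7a11 to Slc3a2 ratio is high with DNFB (1.10) and low with DPI (-1.27) and DPI + DNFB (-1.25). Ratios use the probe set tested for each gene, and the other Slc7a11 probe set did not pass with DPI.

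Gss (chr2:155563181-155592810), which completes the tripeptide, rose with DNFB and did not pass with the other treatments on its brighter probe set. The signal was 496, 616 and 618 on the DNFB arrays, 315, 302 and 372 on the H2O2 arrays and 418, 453 and 428 on the DPI arrays. It was 376, 439.8 and 404 on the DPI + DNFB arrays, against 319, 369 and 326 on the non-treated arrays. The DNFB arrays lay above all others, DPI and DPI + DNFB overlapped each other above the non-treated arrays, and H2O2 overlapped non-treated. The rise with DNFB was 1.67-fold (log2 0.74 ± 0.163 SE, adjusted p = 0.00195). The log2 differences of 0.35 ± 0.163 (adjusted p = 0.118) with DPI, 0.26 ± 0.163 (adjusted p = 0.243) with DPI + DNFB and -0.04 ± 0.163 (adjusted p = 0.902) with H2O2 did not pass. The other probe set gave 0.70 ± 0.179 (adjusted p = 0.00871) with DNFB and 0.59 ± 0.179 (adjusted p = 0.0183) with DPI + DNFB, both of which passed.

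Gsr (chr8:33653238-33698162), the NADPH-dependent reductase that recycles glutathione disulfide, rose with DNFB and fell with DPI + DNFB. The signal was 2312, 2163 and 2247 on the DNFB arrays, 1249.5, 1068 and 1458 on the H2O2 arrays and 1094, 954 and 1235 on the DPI arrays. It was 1025, 812 and 578 on the DPI + DNFB arrays, against 1478, 1506 and 1441 on the non-treated arrays. The DNFB arrays lay above and the DPI and DPI + DNFB arrays below the non-treated ones, without overlap with them, while H2O2 overlapped non-treated. Gsr rose 1.51-fold with DNFB (log2 0.60 ± 0.164 SE, adjusted p = 0.0104) and fell 1.86-fold with DPI + DNFB (log2 -0.90 ± 0.164 SE, adjusted p = 0.000295). The DPI difference of -0.43 ± 0.164 (adjusted p = 0.0506) fell just outside the threshold, and that with H2O2 was -0.24 ± 0.164 (adjusted p = 0.317). The rise with DNFB was not shared by the other Gsr probe set (0.17 ± 0.206, adjusted p = 0.684), and the mean of both gave 0.38 (adjusted p = 0.104); the fall with DPI + DNFB was -0.98 ± 0.206 (adjusted p = 0.00135) there. With the beta-actin covariate the fall of the tested probe set with DPI + DNFB was -0.81 and no longer passed (adjusted p = 0.1).

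Glrx (chr13:75839885-75850151), the cytosolic glutaredoxin that removes glutathione from protein cysteines, rose under all 4 treatments and most with DPI alone. The signal was 1291, 1059 and 1323 on the DNFB arrays, 712, 772 and 525 on the H2O2 arrays and 1442, 1344 and 1402 on the DPI arrays. It was 657, 591 and 509 on the DPI + DNFB arrays, against 391, 291 and 248 on the non-treated arrays. DPI arrays were the highest, DNFB came next without overlap, H2O2 and DPI + DNFB overlapped, and every treated array was above the non-treated ones. Glrx rose 3.86-fold with DNFB (log2 1.95 ± 0.175 SE, adjusted p = 9.58e-08), 2.12-fold with H2O2 (log2 1.08 ± 0.175 SE, adjusted p = 9.32e-05) and 4.41-fold with DPI (log2 2.14 ± 0.175 SE, adjusted p = 2.9e-08). With DPI + DNFB it rose 1.87-fold (log2 0.90 ± 0.175 SE, adjusted p = 0.000503), less than with either agent alone, and 1.18 on the log2 scale with the beta-actin covariate (adjusted p = 0.0218). The second probe set passed in the same 4 comparisons, with 2.12 ± 0.184 (adjusted p = 1.18e-07) for DPI and 0.50 ± 0.184 (adjusted p = 0.0491) for DPI + DNFB. The DNFB rise was 1.70 on the arrays at the lower target and 1.92 at the higher.

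Gpx1 (chr9:108339080-108340342), the selenium-dependent peroxidase that reduces hydrogen peroxide with glutathione, was the one member that fell with DNFB. The signal was 11873, 12446 and 13618 on the DNFB arrays, 15750, 18881 and 17224 on the H2O2 arrays and 24880, 19280 and 21504 on the DPI arrays. It was 26408, 25151 and 31287 on the DPI + DNFB arrays, against 17398, 16586 and 17401 on the non-treated arrays. DNFB arrays lay below and DPI and DPI + DNFB arrays above the non-treated ones, with no overlap, and H2O2 overlapped non-treated. The fall with DNFB was 1.36-fold (log2 -0.44 ± 0.115 SE, adjusted p = 0.00733), and Gpx1 rose 1.27-fold with DPI (log2 0.35 ± 0.115 SE, adjusted p = 0.0261) and 1.6-fold with DPI + DNFB (log2 0.68 ± 0.115 SE, adjusted p = 0.000129). With H2O2 its log2 difference was 0.01 ± 0.115 (adjusted p = 0.964). The DPI call ended without non-treated replicate 2 or 3 or DPI replicate 1 or 3 (adjusted p between 0.0564 and 0.134) and with array median centring (adjusted p = 0.0539). The DPI + DNFB rise was 0.46 with the beta-actin covariate (adjusted p = 0.15).

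Gpx4 (chr10:80047166-80056439), the selenium-dependent peroxidase that reduces phospholipid hydroperoxides and guards against ferroptosis, did not pass with DNFB or H2O2 and rose in both DPI groups. The signal was 5042, 3636 and 4494 on the DNFB arrays, 4719, 4353 and 3669.5 on the H2O2 arrays and 7122, 5649 and 5507 on the DPI arrays. It was 7438, 6939 and 7295 on the DPI + DNFB arrays, against 4783, 4121 and 4391 on the non-treated arrays. All 6 arrays with DPI lay above the other 9. The rise was 1.37-fold with DPI (log2 0.45 ± 0.13 SE, adjusted p = 0.0112) and 1.63-fold with DPI + DNFB (log2 0.71 ± 0.13 SE, adjusted p = 0.000307), and the other probe set rose by 0.77 ± 0.136 (adjusted p = 3e-04) and 1.08 ± 0.136 (adjusted p = 9.99e-06). With DNFB the log2 difference was -0.02 ± 0.13 (adjusted p = 0.931), with a 95% interval of -0.31 to 0.27. The DPI call of the tested probe set ended without non-treated replicate 2 or DPI replicate 1 (adjusted p = 0.0533 and 0.0788).

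**Figure D3:**
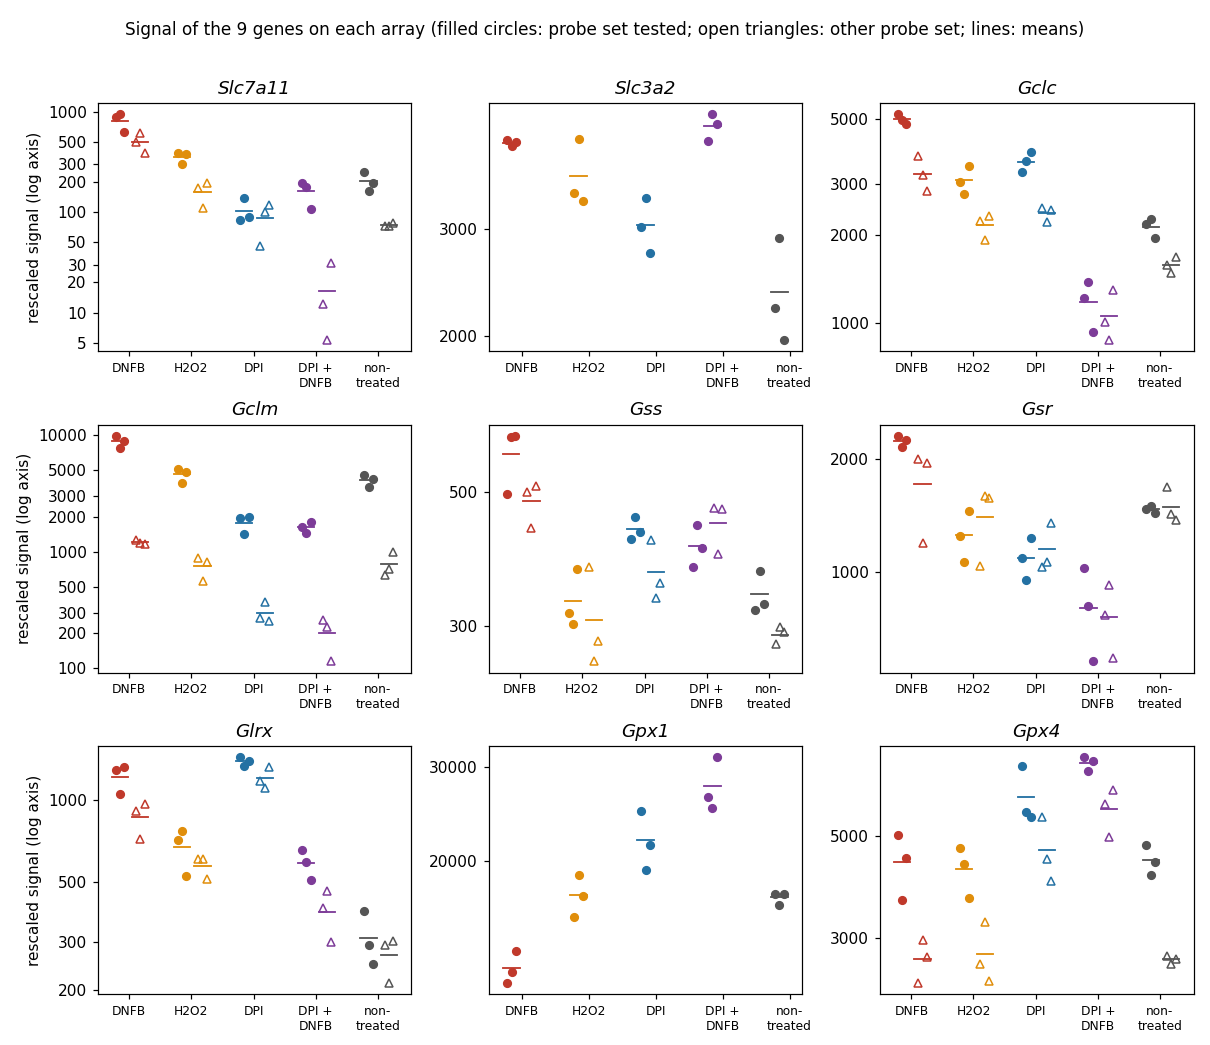
Rescaled signal (log axis) of the 9 genes on each of the 15 arrays by group; filled circles are the probe set tested, open triangles the other probe set of the gene, and short lines group means of 3 arrays. Levels of different probe sets are not comparable. Gclm is low in both groups with DPI, Glrx is highest with DPI (1344 to 1443 on the tested probe set), and Gpx1 and Gpx4 are highest with DPI + DNFB.

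The allergen and the oxidant were set against each other directly. DNFB gave higher levels than H2O2 for 6 members and a lower level for Gpx1, while Slc3a2 and Gpx4 did not pass; of all genes 8.75% were higher and 6% lower (7.76% and 3.20% with array median centring, 0.0315% and 0.173% on the values as deposited). The member median was 0.78, beside 0.01 for all genes. Slc7a11 was 2.24-fold higher with DNFB than with H2O2 (log2 1.16 ± 0.261 SE, adjusted p = 0.00496), Gclm 1.93-fold (log2 0.95 ± 0.144 SE, adjusted p = 0.000163) and Glrx 1.82-fold (log2 0.87 ± 0.175 SE, adjusted p = 0.00213). Log2 differences of 0.84 ± 0.164 (adjusted p = 0.00175) for Gsr, 0.78 ± 0.163 (adjusted p = 0.00301) for Gss and 0.70 ± 0.129 (adjusted p = 0.00109) for Gclc also passed. Gpx1 was 1.36-fold lower (log2 -0.45 ± 0.115 SE, adjusted p = 0.0116), a call that ended without DNFB replicate 1 or H2O2 replicate 2 (adjusted p = 0.0588 and 0.0625). Slc3a2 differed by 0.19 ± 0.13 (adjusted p = 0.387), with a 95% interval of -0.10 to 0.48. The second probe sets of Gclm (0.69 ± 0.251, adjusted p = 0.0931), Gsr (0.28 ± 0.206, adjusted p = 0.476) and Glrx (0.58 ± 0.184, adjusted p = 0.0524) did not pass. Within 1 scaling target the counts were 4 higher and 0 lower at the lower target (3.87% and 1.79% of all genes), with 6 and 0 at an unadjusted p of 0.05, and 0 and 0 at the higher (1.71% and 1.07% of all genes), with 6 and 1 unadjusted by limma.

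The effect of adding DPI to DNFB was read from DPI + DNFB against DNFB. DPI + DNFB gave lower levels than DNFB for 6 members (Slc7a11, Gclc, Gclm, Gss, Gsr and Glrx) and higher levels for Gpx1 and Gpx4, and Slc3a2 did not pass; of all genes 22.9% were higher and 21.3% lower (12.7% and 30% with array median centring, 5.17% and 1.35% on the values as deposited). The member median was -1.05, beside 0.10 for all genes. Gclm was 5.4-fold lower (log2 -2.43 ± 0.144 SE, adjusted p = 2.02e-10), Slc7a11 4.79-fold lower (log2 -2.26 ± 0.261 SE, adjusted p = 9.39e-07) and Gclc 4.26-fold lower (log2 -2.09 ± 0.129 SE, adjusted p = 3.7e-10). In these 3 genes the DPI + DNFB and DNFB arrays were apart without overlap. Gsr was 2.82-fold lower (log2 -1.50 ± 0.164 SE, adjusted p = 5.03e-07) and Glrx 2.06-fold lower (log2 -1.05 ± 0.175 SE, adjusted p = 6.51e-05). Gss was 1.4-fold lower (log2 -0.49 ± 0.163 SE, adjusted p = 0.0207), a call that ended without DNFB replicate 2 or 3 or DPI + DNFB replicate 1 (adjusted p between 0.0661 and 0.0777), on its other probe set (-0.12 ± 0.179, adjusted p = 0.651) and with the beta-actin covariate (log2 -0.43, adjusted p = 0.246). Gpx1 was 2.18-fold higher (log2 1.12 ± 0.115 SE, adjusted p = 2.12e-07) and Gpx4 1.66-fold higher (log2 0.73 ± 0.13 SE, adjusted p = 0.000125). Slc3a2 differed by 0.09 ± 0.13 (adjusted p = 0.606), with a 95% interval of -0.20 to 0.38, and by -0.18 with array median centring. Within 1 scaling target 2 members were higher and 5 lower on the arrays at the lower target (18.9% and 18.1% of all genes), and 2 and 5 at the higher (13.9% and 13.4% of all genes).

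The effect of adding DNFB to DPI was read from DPI + DNFB against DPI. DPI + DNFB gave higher levels than DPI for Slc3a2 and Gpx1 and lower levels for Gclc, Gsr and Glrx, and the other 4 did not pass; of all genes 14.1% were higher and 13.7% lower (5.24% and 22.5% with array median centring, 0.0472% and 0.00787% on the values as deposited). Gclc was 3.05-fold lower (log2 -1.61 ± 0.129 SE, adjusted p = 3.38e-07) and Glrx 2.36-fold lower (log2 -1.24 ± 0.175 SE, adjusted p = 4.96e-05), in both cases with no overlap between arrays. Slc3a2 was 1.46-fold higher (log2 0.54 ± 0.13 SE, adjusted p = 0.00396), and 0.29 on the log2 scale with array median centring (adjusted p = 0.224). Gsr was 1.38-fold lower (log2 -0.47 ± 0.164 SE, adjusted p = 0.0402), a call that ended without DNFB replicate 3, DPI replicate 1 or 3, or DPI + DNFB replicate 2 or 3 (log2 -0.25 without the last). Gpx1 was 1.26-fold higher (log2 0.34 ± 0.115 SE, adjusted p = 0.034), a call that ended without DPI replicate 2 or 3 or DPI + DNFB replicate 1 or 3, and with array median centring (log2 0.08). Slc7a11 had 0.56 ± 0.261 (adjusted p = 0.119) on the tested probe set and -1.73 ± 0.391 (adjusted p = 0.00344) on the other, of opposite signs; the first passed without DPI + DNFB replicate 3 (log2 0.80, adjusted p = 0.0382). With the beta-actin covariate, where 2.11% of all genes were higher and 2.15% lower, Gclc passed (log2 -1.34, adjusted p = 0.0025). The log2 values under it were -0.98 ± 0.285 for Glrx (adjusted p = 0.0581) and 0.68 ± 0.214 for Slc3a2 (adjusted p = 0.0795). They were -0.38 ± 0.277 for Gsr (adjusted p = 0.496) and 0.13 ± 0.178 for Gpx1 (adjusted p = 0.762), and none of these genes passed. These standard errors are wider than in the main fit, and the Slc3a2 value is larger than its 0.54 in the main fit. Without DPI replicate 3 the number of members that passed was 3. Within 1 scaling target, 0 members were higher and 2 lower by limma at the lower target (5.46% and 5.86% of all genes), with 2 and 2 at an unadjusted p of 0.05, and 1 and 2 at the higher (8.59% and 8.93% of all genes).

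The difference between those 2 effects of DNFB was tested as an interaction: the DNFB effect in the presence of DPI minus that in its absence. It was below 0 for 6 members and above 0 for Gpx1, and Slc3a2 and Gpx4 did not pass; of all genes 17.3% were above and 13.8% below 0 (8.65% and 19.0% with array median centring, 0.764% and 0.315% on the values as deposited). Glrx had the largest interaction of the members, at log2 -3.19 ± 0.247 SE (adjusted p = 2.11e-08): DNFB changed it by -1.24 with DPI and 1.95 without. Gclc followed at -2.83 ± 0.183 (adjusted p = 2.27e-09), with -1.61 with DPI and 1.23 without. For Glrx and Gclc, as for Gsr and Gpx1, the DNFB effect passed in opposite directions with DPI and without it. The Gsr and Gpx1 calls with DPI ended when single arrays were left out, as given above. For Gclm the interaction was -1.22 ± 0.203 (adjusted p = 0.000125), with -0.11 with DPI and 1.11 without, and for Slc7a11 it was -1.37 ± 0.369 (adjusted p = 0.0074), with 0.56 with DPI and 1.93 without. The other Slc7a11 probe set had an interaction of -4.23 ± 0.552 (adjusted p = 1.8e-05), with -1.73 ± 0.391 (adjusted p = 0.00344) with DPI and 2.49 ± 0.391 (adjusted p = 0.000121) without. Gsr (-1.06 ± 0.232, adjusted p = 0.00156) and Gss (-0.83 ± 0.231, adjusted p = 0.00923) passed as well, though not on their other probe sets (-0.77 ± 0.292, adjusted p = 0.0639, and -0.44 ± 0.253, adjusted p = 0.239). For Gpx1 it was 0.78 ± 0.162 (adjusted p = 0.00108). On the arrays at the lower target and at the higher target the interaction was -2.82 and -3.22 for Glrx, -2.62 and -2.94 for Gclc, -1.29 and -1.06 for Gclm, and -0.42 and -2.01 for Slc7a11, whose lower-target value did not pass (adjusted p = 0.57). With the beta-actin covariate, Gss (-0.78, adjusted p = 0.0686) and Slc7a11 (-1.17, adjusted p = 0.0868) no longer passed, and Glrx (-2.98), Gclc (-2.61), Gclm (-1.40), Gsr (-0.99) and Gpx1 (0.60) did.

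**Figure D4:**
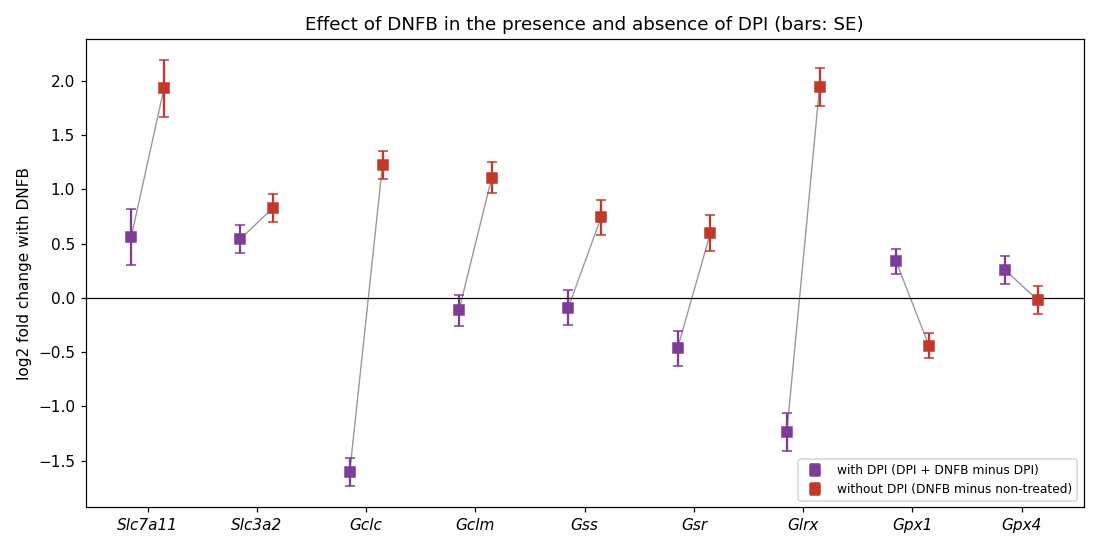
Log2 fold change with DNFB for each of the 9 genes in the presence of DPI (DPI + DNFB minus DPI, left of each pair) and in its absence (DNFB minus non-treated, right of each pair); squares are limma estimates from 3 arrays a group and bars standard errors. Gclc and Glrx are above 0 without DPI and below 0 with it, Slc3a2 is above 0 in both, and Gpx1 runs the other way.

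Genes around the members were read from lists chosen by known function, and their counts stand against the shares of all genes given above for each treatment (10.5% higher and 13.9% lower with DNFB, 10.9% and 17.4% with H2O2, 13.3% and 18.4% with DPI, 15% and 18.7% with DPI + DNFB). Most of these lists are short, so that 1 or 2 calls in a direction are near those shares and are not a result about the list. The lists were also chosen with earlier results of these data known, so no count below tests a list against those shares. Of 13 tested genes of cysteine supply and glutathione transport (of 16 listed), by limma 3 rose and 1 fell with DNFB, 3 rose and 3 fell with H2O2, 5 rose and 3 fell with DPI and 6 rose and 2 fell with DPI + DNFB. Cth, the cystathionine gamma-lyase that makes cysteine from cystathionine, rose in all 4, by 0.99 ± 0.212 (adjusted p = 0.00151) with DNFB and 1.43 ± 0.212 (adjusted p = 3.76e-05) with H2O2 on the log2 scale. With DPI the rise of Cth was 2.43 ± 0.212 (adjusted p = 6.54e-08), and with DPI + DNFB it was 1.77 ± 0.212 (adjusted p = 3.71e-06). The neutral amino acid transporter Slc1a4 rose by 1.88 ± 0.247 with DNFB, 1.06 ± 0.247 with H2O2, 1.16 ± 0.247 with DPI and 2.04 ± 0.247 with DPI + DNFB. Abcc1, an exporter of glutathione and its conjugates, was 0.95 ± 0.101 (adjusted p = 3.73e-06) higher with DNFB than with H2O2. Abcc4, another exporter, fell by 0.77 ± 0.228 with DNFB, 1.06 ± 0.228 with H2O2, 1.02 ± 0.228 with DPI and 1.05 ± 0.228 with DPI + DNFB. The list's median log2 change was -0.20 with DNFB, 0.27 with DPI and 0.39 with DPI + DNFB.

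Of 5 other light chains that pair with Slc3a2, Slc7a5, the leucine transporter subunit LAT1, rose under every treatment, by 1.26 ± 0.106 with DNFB, 1.19 ± 0.106 with H2O2, 1.14 ± 0.106 with DPI and 1.19 ± 0.106 with DPI + DNFB. It was the only one of the 5 that rose by the test in any of these comparisons, and Slc7a6 fell with DPI + DNFB (-0.61 ± 0.111, adjusted p = 0.000301). Slc7a5 and Slc3a2 both passed as higher in both DPI groups, and Slc7a11 did not. The Slc7a5 interaction of -1.21 ± 0.149 (adjusted p = 5.38e-06) passed, and that of Slc3a2 (-0.29 ± 0.184, adjusted p = 0.257) did not; the 2 were not tested against each other.

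Among 9 tested genes of glutathione breakdown (of 14 listed), by limma 1 rose and 2 fell with DNFB, 2 rose and 1 fell with H2O2, 2 rose and 1 fell with DPI and 2 rose and 1 fell with DPI + DNFB. Chac1, which cleaves glutathione in the cytosol, rose by 1.99 ± 0.267 (adjusted p = 1.3e-05) with DNFB and by 1.38 ± 0.267 (adjusted p = 0.000567) with H2O2. Ggct, which acts on the gamma-glutamyl products, fell with DNFB (-0.66 ± 0.168, adjusted p = 0.00593) and with H2O2 (-0.70 ± 0.168, adjusted p = 0.00362). Ggt5, a gamma-glutamyltransferase, rose with H2O2 (1.0 ± 0.32), DPI (1.27 ± 0.32) and DPI + DNFB (1.19 ± 0.32). Of 5 tested genes (of 12 listed) of other peroxidases, glutaredoxins and glyoxalases, Glrx5, the mitochondrial glutaredoxin of iron-sulfur cluster assembly, fell with DNFB (-0.73 ± 0.105, adjusted p = 2.88e-05), Glrx2 fell with H2O2 (-0.47 ± 0.104, adjusted p = 0.00174) and Glrx3 fell with DPI + DNFB (-1.45 ± 0.473, adjusted p = 0.0228). Glrx rose in all 4 of these comparisons.

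Of 9 tested genes that supply the NADPH used by Gsr (of 10 listed), by limma 2 rose and 3 fell with DNFB, 0 rose and 2 fell (0 higher at an unadjusted p of 0.05) with H2O2, 5 rose and 2 fell with DPI and 3 rose and 0 fell (1 lower at an unadjusted p of 0.05) with DPI + DNFB. Taldo1, the transaldolase of the pentose phosphate pathway, rose with DNFB (0.83 ± 0.0997, adjusted p = 3.56e-06). The NADP-dependent isocitrate dehydrogenase Idh1 fell with DNFB (-0.85 ± 0.173, adjusted p = 0.000978) and with H2O2 (-0.66 ± 0.173, adjusted p = 0.00693) and rose with DPI (1.46 ± 0.173, adjusted p = 2.74e-06) and with DPI + DNFB (1.52 ± 0.173, adjusted p = 2.04e-06). That is the direction Gpx1 took with DNFB, DPI and DPI + DNFB. Of 8 genes of selenoprotein synthesis, on which Gpx1 and Gpx4 depend, by limma 0 rose and 2 fell (1 higher at an unadjusted p of 0.05) with DNFB, 0 rose and 2 fell (1 higher at an unadjusted p of 0.05) with H2O2, 0 rose and 4 fell (0 higher at an unadjusted p of 0.05) with DPI and 1 rose and 1 fell with DPI + DNFB. Sephs2, which makes the selenium donor, fell with DPI (-1.36 ± 0.142, adjusted p = 5.25e-07) and with DPI + DNFB (-0.75 ± 0.142, adjusted p = 0.000428), where Gpx1 and Gpx4 rose.

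Of 10 transcription factors and regulators of these genes, by limma 9 rose and 0 fell (0 lower at an unadjusted p of 0.05) with DNFB, 8 rose and 0 fell (0 lower at an unadjusted p of 0.05) with H2O2, 5 rose and 3 fell with DPI and 6 rose and 1 fell with DPI + DNFB, with list medians of 1.06, 0.98, 0.44 and 0.77 in that order. The small MAF protein Maff, a partner of NRF2, rose by 2.29 ± 0.144 with DNFB, 3.07 ± 0.144 with H2O2, 2.15 ± 0.144 with DPI and 2.78 ± 0.144 with DPI + DNFB. Atf3, a stress-induced factor of the ATF family, rose by 2.61 ± 0.218, 3.78 ± 0.218, 2.48 ± 0.218 and 3.55 ± 0.218 in the same order, and Ddit3 (CHOP) by 1.56 ± 0.19, 2.11 ± 0.19, 1.29 ± 0.19 and 3.27 ± 0.19. Bach1, the repressor that competes with NRF2 at antioxidant response elements, was 0.68 ± 0.115 higher with DNFB than with H2O2, and its interaction was -1.77 ± 0.163 (adjusted p = 1.84e-07). Nfe2l2, which encodes NRF2, and Atf4 are given for the motifs printed above and were picked after their values were seen. Nfe2l2 changed by 0.61 ± 0.105 (adjusted p = 0.00018) with DNFB, 0.69 ± 0.105 (adjusted p = 5.16e-05) with H2O2 and -0.32 ± 0.105 (adjusted p = 0.0262) with DPI, and by -0.14 ± 0.105 (adjusted p = 0.307) with DPI + DNFB, which did not pass. Atf4 changed by 0.90 ± 0.123 (adjusted p = 1.53e-05) with DNFB, 1.49 ± 0.123 (adjusted p = 3.38e-08) with H2O2, -0.47 ± 0.123 (adjusted p = 0.00652) with DPI and 0.71 ± 0.123 (adjusted p = 0.000169) with DPI + DNFB.

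**Figure D5:**
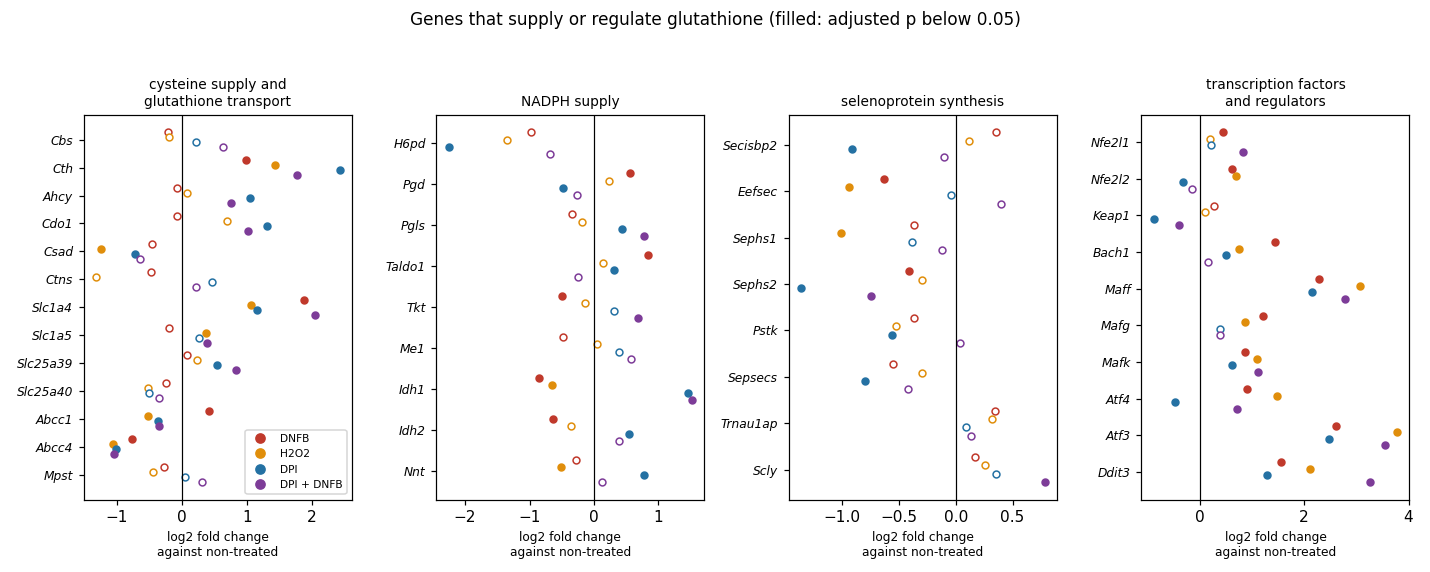
Log2 fold change against the non-treated arrays (horizontal axis) of genes of 4 lists, with DNFB, H2O2, DPI and DPI + DNFB from top to bottom within each gene; points are limma estimates from 3 arrays a group and filled points passed an adjusted p of 0.05. Cth and Slc1a4 are above 0 in every group, Idh1 is below 0 with DNFB and H2O2 and above 0 in both DPI groups, and Maff, Atf3 and Ddit3 are above 0 throughout.

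Across the 15 arrays, which share treatments within groups, log2 signals of Gclm correlated with those of Slc7a11 at Pearson r = 0.878 and of Gsr at 0.872, and Gpx1 with Gsr at -0.92 and with Gclm at -0.899. Gclm and Gclc, subunits of 1 enzyme, correlated at 0.621, and Slc7a11 and Slc3a2, subunits of 1 transporter, at 0.331. The genes most like each member over the 15 arrays were Rab11a for Gclc (r = 0.971), Cd300a and Nabp1 for Gclm (0.974 and 0.973), Stxbp5 for Gss (0.883) and Fem1c for Gsr (0.956). Smox, the spermine oxidase, was most like Slc7a11 (0.965), and the chaperone Hsph1 and its partner Bag3 were most like Slc3a2 (0.929 and 0.887), followed by Slc1a4 (0.884). Tcp11l2 was most like Glrx (0.958), Cct7 and Cyc1 most like Gpx1 (0.974 each) and Spsb1 most like Gpx4 (0.96). These coefficients describe 5 treatments and carry no test.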

How the data were processed

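The 15 arrays were deposited as MAS5 signal intensity values, made by the authors in Affymetrix Expression Console per the submitters' processing notes, with a scaling target of 250 on 6 arrays and 500 on 9, as the trimmed means of the deposited values show. Chip background steps and RNA depth are not given in the sources used here, and the number of arrays limits the precision. Every array was rescaled to a mean of 500 after trimming 2% at each end. Of 45101 probe sets, 64 were controls; of the other 45037, the platform annotation gave 1 symbol to 34945, several to 932 and none to 9160. Current symbols were reached through the gene ID for 34741 of the 34945, and 204 kept the annotation's name. Coordinates and promoter windows are RefSeq's on build GRCm38.p6.

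Probe sets with a mean log2 signal under the 40th percentile (6.22) were left out, which kept 27022. For each of 12701 genes the probe set with the highest mean was tested, as log2(signal + 15), with limma 3.58.1 in R 4.3.3 (lmFit and eBayes with trend, 5 group means over 15 arrays, 10 residual degrees of freedom, used also for the 95% intervals). Fold changes are on the log2(signal + pseudocount) scale, which understates dim genes. There were 8 comparisons, each adjusted by Benjamini-Hochberg over all genes, and the procedure was tested on simulated data. The text names the 9 members, up to 3 genes per list and comparison with the largest change among those that passed, with their values elsewhere, and up to 3 genes most like each member. Members and lists were chosen with earlier results of these data known, and the ratios within arrays after the values were seen. Same-numbered arrays of different groups deviated together in none of 10 pairs of groups by the rule that all 3 correlations exceed 0.1 (0 pairs; r between -0.003 and 0.144), so the numbers were not taken as pairs. Alternatives changed the scaling, pseudocount, filter, probe set rule, variance model, arrays in the fit, scaling target, replicate block, RNA quality covariate and, 1 at a time, the arrays.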

Additional observations from a re-analysis of the deposited data

Results flagged for a closer look

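For 7 members the effect of DNFB with DPI differed from its effect without DPI by limma's interaction term, the first minus the second, adjusted over all genes. The log2 values were -2.83 for Gclc, -1.22 for Gclm, -0.83 for Gss, -1.06 for Gsr, -1.37 for Slc7a11 and -3.19 for Glrx, and 0.78 for Gpx1. These are the terms of the report's last comparison, and Gclc, Glrx, Gsr and Gpx1 were the members whose DNFB change passed in opposite directions with DPI and without it. With DPI, the calls of Gsr and Gpx1 (adjusted p = 0.0402 and 0.034) ended when single arrays were left out. The other Gsr probe set did not pass with DNFB (0.17, adjusted p = 0.684). The interaction did not pass on the other probe sets of Gss (-0.44, adjusted p = 0.239) and Gsr (-0.77, adjusted p = 0.0639). Under the beta-actin covariate the interactions of Gss (-0.78, adjusted p = 0.0686) and Slc7a11 (-1.17, adjusted p = 0.0868) did not pass. With the beta-actin covariate, only Gclc passed for DPI + DNFB against DPI (adjusted p = 0.0025), and Glrx did not (adjusted p = 0.0581). The DPI + DNFB group, which enters each of these values, also had the highest mean beta-actin 3' to 5' ratio of the 5 groups (1.95 ± 0.405 against 1.25 ± 0.003 on non-treated arrays, SD, n = 3 each).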

How the results depend on the processing

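Over 31 alternatives, 2232 values of members were set against the reported ones: 2045 kept their direction and side of the threshold, 150 no longer passed, 14 newly passed and 23 turned sign, all of the last among values that had not passed. The count of 2045 was partly set in advance, because many alternatives cannot move a log2 value. Leaving out an array of a group outside the comparison, or the variance trend, changes only the standard error and p. On the values as deposited, which leave arrays at unlike scaling targets together, the number of members that passed was 0 with DNFB, 0 with H2O2, 1 with DPI and 0 with DPI + DNFB against non-treated, 3 for DPI + DNFB against DNFB, 0 for DPI + DNFB against DPI, 0 for DNFB against H2O2 and 1 for the interaction; at an unadjusted p of 0.05 limma gave 2 higher and 0 lower with DNFB, 1 and 0 with H2O2, 0 and 1 with DPI + DNFB, 0 and 2 for DPI + DNFB against DPI, and 0 and 0 for DNFB against H2O2. On arrays at the higher target the numbers were 4 with DNFB, 2 with H2O2, 3 with DPI, 3 for DPI + DNFB against DPI and 0 for DNFB against H2O2, and at the lower target 2 with H2O2, 2 for DPI + DNFB against DPI, 4 for DNFB against H2O2 and 3 for the interaction, on fewer arrays. With the beta-actin covariate 4 passed for DPI + DNFB against non-treated and 1 against DPI, where 930 and 541 of all 12701 genes passed. DPI + DNFB against DPI gave 3 with no filter, array median centring, quantile normalization, no variance trend, or only the groups compared; the cause was not tested. Without 1 array the numbers were 8 to 8 with DNFB, 3 to 4 with H2O2, 3 to 8 with DPI, 7 to 7 with DPI + DNFB, 7 to 8 for DPI + DNFB against DNFB, 3 to 5 against DPI, 6 to 7 for DNFB against H2O2 and 7 to 7 for the interaction. With the replicate number as a block, numbers were as reported except with DPI, where 8 passed because Gsr was added (-0.43, adjusted p = 0.043). Quantile normalization moved the median interaction of all genes by -0.105. Some log2 values that had not passed turned sign, with no cause tested. These were, for DNFB against non-treated, Gpx4 at -0.13 to 0.11 without 1 array. Others were, for H2O2 against non-treated, Gpx1 at -0.011 (median centring), -0.14 (quantile), -0.14 (lower target), -0.023 (beta-actin) and -0.056 to 0.075 without 1 array, and Gss at 0.076 (quantile), 0.012 (mean of probe sets) and -0.12 to 0.026 without 1 array, and Gpx4 at -0.15 to 0.035 without 1 array, and the Slc7a11 to Slc3a2 ratio at -0.0398 (lower target) and -0.16 to 0.35 without 1 array. Others were, for DPI + DNFB against DNFB, Slc3a2 at -0.18 (median centring). More were, for DPI + DNFB against DPI, Gss at 0.088 (mean of probe sets), and Slc7a11 at -0.59 (mean of probe sets). Others were, for DNFB against H2O2, Slc3a2 at -0.14 (as deposited), and Gpx4 at -0.29 (as deposited), -0.038 (target block), -0.14 (higher target) and -0.063 to 0.17 without 1 array. Others were, for the interaction, Slc3a2 at 0.044 (as deposited).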
